A study of Mus musculus with 2 samples.

Results

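The cells described here are mouse hepatocytes next to the central vein, taken as the cell barcodes that carried transcripts of genes known from the innermost ring of the liver lobule. A barcode was a member when it held at least 1000 unique molecular identifiers (UMIs, each 1 captured RNA molecule), at least 3 UMIs summed over Slc1a2, Lgr5, Slc22a3, Rcan2 and Tbx3, and at most 1 UMI summed over the periportal genes Ncam2, Sult5a1, Sds and Cryl1. This rule found 183 members among 3537 barcodes of at least 1000 UMIs. There were 146 members of 1703 barcodes in the control library and 37 of 1834 in the GS_KO library.

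Both libraries came from livers of 11 week-old Glul f/f mice, which carry floxed alleles of Glul, the gene of glutamine synthetase, and bore no tumours. The control mouse received AAV8-GFP and the GS_KO mouse received AAV8-Cre, and both livers were digested 2 weeks later by perfusion with collagenase II at 0.3 mg/mL. AAV8 is a viral vector that reaches hepatocytes well, and the sources used here do not name the promoter that drives Cre. Hepatocytes and purified non-parenchymal cells went into 10x 5′ libraries, which the labels call single-cell in one place and single-nucleus in another. Each group was 1 mouse and 1 library, so no test between the groups was possible: library, mouse and virus cannot be told apart. Cells of 1 library are not replicates, and all intervals below are 95% intervals that cover counting error only.

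The liver lobule is organised along the blood flow from the portal vein to the central vein. Endothelial cells of the central vein secrete Wnt ligands, which keep beta-catenin active in the hepatocytes around it. These hepatocytes take up ammonium and glutamate and make glutamine, while hepatocytes nearer the portal vein make urea and break down amino acids. Slc1a2 is a plasma membrane glutamate transporter, Lgr5 a receptor for R-spondins that strengthens Wnt signalling, Slc22a3 an organic cation transporter, Rcan2 a regulator of calcineurin and Tbx3 a transcription factor that responds to beta-catenin.

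The promoter windows of Slc1a2, which supplied most of the UMIs that chose the members, and of Glul, the deleted gene, are shown because both genes are known from the same ring of cells. Each runs from 250 bases before to 50 after a RefSeq transcription start, in the build GRCm38.p6. The motif searched was ATCAAAG, a core site of the TCF/LEF factors that bind beta-catenin, or CTTTGAT, which is the same motif on the other strand, and capitals mark it. The Slc1a2 window, chr2:102706188-102706487 on the plus strand, lies inside the span of the gene and holds 1 match, at position 44 of the window. The Glul window, chr1:153899679-153899978 on the plus strand, holds 0 matches.
Slc1a2: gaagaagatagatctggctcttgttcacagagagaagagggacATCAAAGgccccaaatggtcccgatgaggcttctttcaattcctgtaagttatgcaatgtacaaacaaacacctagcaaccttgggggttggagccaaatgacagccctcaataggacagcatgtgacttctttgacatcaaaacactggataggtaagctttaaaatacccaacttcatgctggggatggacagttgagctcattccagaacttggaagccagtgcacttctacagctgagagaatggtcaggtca
Glul: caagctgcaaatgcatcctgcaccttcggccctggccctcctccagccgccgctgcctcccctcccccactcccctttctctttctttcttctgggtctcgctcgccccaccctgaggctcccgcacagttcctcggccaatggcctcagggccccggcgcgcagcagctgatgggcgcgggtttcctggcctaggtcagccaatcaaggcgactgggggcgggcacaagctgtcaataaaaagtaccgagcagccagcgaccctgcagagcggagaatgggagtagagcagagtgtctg
The motif occurred in 3.73% of 32851 RefSeq windows of the same 300 bases, and 3 of the 5 marker genes of the rule had a window, of which Slc1a2 alone had a match. Among the genes highest in members of either library, 2 of 19 with a window had a match, Arhgef3 and Wfdc17, and among the genes lowest in members it was 1 of 16, Hal. Of the pericentral list, 2 of 30 genes had a match, Cyp2c29 and Lect2, and of the periportal list 1 of 21, Hal. Counted by gene, a match was present in 4.29% of 27025 genes. A match is a description of letters in the window and not a binding site.

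Member numbers describe the rule and its marker genes. Members made up 8.57% of the control barcodes of at least 1000 UMIs (7.29% to 10.0%, exact binomial) and 2.02% of those in GS_KO (1.42% to 2.77%). Fewer cells of this kind and less marker RNA per cell cannot be told apart by such a rule. Over all barcodes of at least 1000 UMIs, Slc1a2 stood at 365 counts scaled for depth (CPM) in control and 68.8 in GS_KO, Rcan2 at 102 and 18.4, and Slc22a3 at 14.7 and 5.32. Lgr5 was closer between the libraries, at 81.1 and 61.0 CPM, as was Tbx3, at 28.4 and 20.9 CPM.

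The 2 libraries filled the rule with different genes. Of the 832 marker UMIs in control members, 75.6% were Slc1a2 and 9.50% Lgr5, and of the 144 in GS_KO members, 56.3% were Slc1a2 and 30.6% Lgr5. In control, 106 of 146 members would have qualified on Slc1a2 alone, against 18 of 37 in GS_KO. Members with no Slc1a2 UMI numbered 16 in control and 7 in GS_KO. At least 3 of the 5 markers were seen in 36 control members and 7 GS_KO members. At the edge of the rule, 36 control and 17 GS_KO barcodes were just inside with a marker sum of 3, and 80 control and 36 GS_KO barcodes were just outside with a sum of 2. The highest sum in 1 barcode was 15 in control and 9 in GS_KO.

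**Figure D1:**
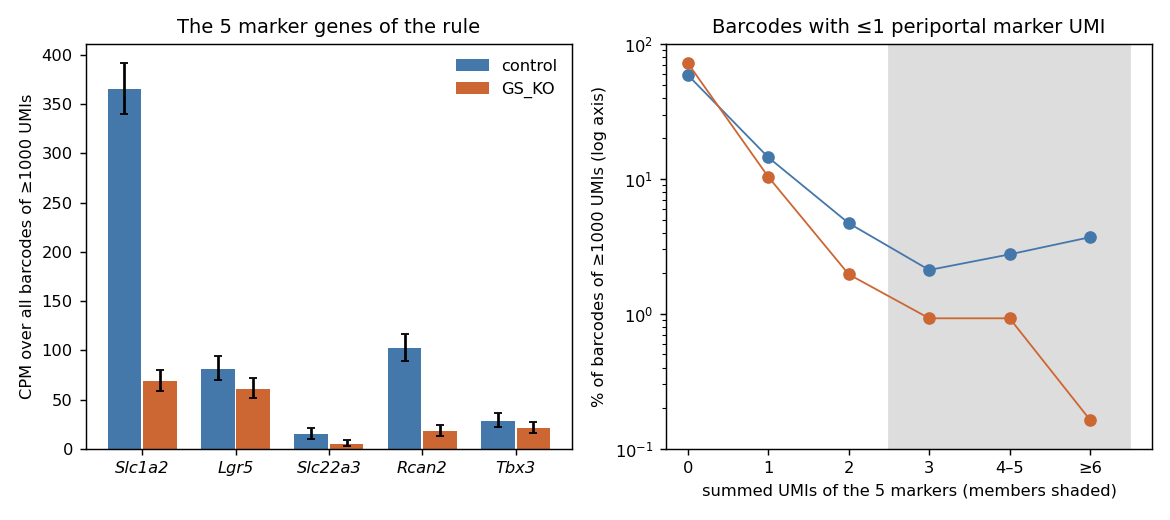
Left, CPM of the 5 marker genes of the rule over all barcodes of at least 1000 UMIs in each library, with exact Poisson 95% intervals. Right, the share of barcodes of at least 1000 UMIs, on a log axis, by their summed marker UMIs, for barcodes within the periportal limit; the members are shaded, and the shares with a sum of 6 or more lie farthest apart, at 63 control and 3 GS_KO barcodes.

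Members and the remaining barcodes of at least 1000 UMIs, called the other barcodes, had close median depths in control, while GS_KO members were somewhat deeper than their others. At least 1500 UMIs were held by 13.7% of control members and 16.2% of the others, and by 29.7% and 20.6% in GS_KO. The median was 1224 UMIs in control members and 1187 in the 1557 other barcodes, and 1332 in GS_KO members and 1208 in the 1797 other barcodes. Mitochondrial UMIs made up 3.22% in control members and 3.68% in the others, and 2.34% and 2.42% in GS_KO. Malat1, a nuclear long noncoding RNA, stood at 20079 CPM in control members and 38457 in GS_KO members, beside 19568 and 37612 in the others. Thus the libraries differed in this nuclear RNA by about the same amount in members and others, and its part in the differences between the libraries was not tested. Nuclear RNA genes as a list had median log2 ratios of members to others of 0.12 in control and 0.05 in GS_KO, over 4 measured in each. Between the members of the libraries the median was 0.94 over 5 measured, with Meg3 past 2-fold higher in GS_KO, beside 12.5% of all genes tested. The 2 libraries together deposited 166037 control and 175937 GS_KO barcodes with medians of 352 and 304 UMIs, and 1 barcode of at least 1000 UMIs occurred in both.

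Members carried hepatocyte RNA, as did the other barcodes. UMIs of 16 hepatocyte identity genes, such as Alb, Ttr, Apob and Hnf4a, made up 59176 CPM in control members and 65705 in the others, and 52486 and 58750 CPM in GS_KO. Markers of other liver cells were low in control members: 6 of 12 Kupffer cell markers were detected, at a summed 47.5 CPM against 97.9 in the others, and Cd5l, Timd4, Adgre1, Csf1r, Cd68 and Folr2 were at 0. Sinusoidal endothelial markers stood at 84.5 CPM against 142, and stellate cell markers at 216 against 258. In GS_KO, 9 of 12 Kupffer markers were detected, with Vsig4, Timd4 and Marco at 0, and their sum was 700 CPM in members against 589 in the others. The endothelial sum there was 75.6 against 135 CPM and the stellate sum 359 against 238 CPM. The part of these cells in the results was not tested. The central vein endothelial genes Rspo3, Wnt2, Wnt9b, Selp, Vwf, Thbd and Cdh13 had 0 UMIs in the members of both libraries. One control member held all 43 Ighg2b and all 40 Igkc UMIs of its group, which raised the B and plasma cell sum of control members to 343 CPM, against 87.8 in the others. Cholangiocyte markers stood at 15.8 against 21.1 CPM in control and 75.6 against 116 in GS_KO, and T and NK cell markers at 0 against 1.51 and at 37.8 against 5.86. Neutrophil markers were at 0 in the members of both libraries.

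Glul, the targeted gene (chr1:153899944-153909723, plus strand, GRCm38), encodes the enzyme that joins ammonium to glutamate. Control members held 53 Glul UMIs, 280 CPM (210 to 366, exact Poisson), and the other control barcodes 109 CPM. GS_KO members held 8 Glul UMIs, 151 CPM (65.3 to 298), and the other GS_KO barcodes 28.9 CPM. Glul was thus higher in members than in others in both libraries, by a log2 ratio of 1.37 (0.90 to 1.80) in control and 2.47 (1.12 to 3.45) in GS_KO. Between the libraries, the log2 ratio of GS_KO to control was −0.81 in members, with an interval of −2.17 to 0.19 that holds 0, and −1.91 (−2.33 to −1.52) in the other barcodes. The sources used here do not say which part of Glul is floxed, so UMIs of a transcript that lacks that part would still count as Glul.

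Glul UMIs were also seen in barcodes outside the members. After each barcode was thinned to 1000 UMIs, 17.8% of control members held a Glul UMI (11.98% to 24.99%; 19.9% before thinning), beside 10.1% of the others and 0 of 98 periportal-marked barcodes, which allows a share of up to 3.69%. Periportal-marked barcodes held at least 3 UMIs of the periportal genes and at most 1 of the 5 markers. In GS_KO, the share was 13.5% of members (4.54% to 28.8%; 21.6% before thinning), 2.56% of the others and 1.05% of 95 periportal-marked barcodes. Periportal hepatocytes should lack Glul, and their median depths were 1197.5 UMIs in control and 1306 in GS_KO. Barcodes marked by Kupffer genes, which may express Glul themselves since macrophages can, gave 12.5% in control, from 3 of 24 barcodes (2.66% to 32.4%), and 4.51% in GS_KO, from 6 of 133 (1.67% to 9.56%). Among barcodes of 200 to under 400 UMIs, taken here as an estimate of free RNA, Glul stood at 113 CPM in control and 9.78 in GS_KO.

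The label was checked with other pericentral genes that the rule does not use. Lhpp, a phosphatase known from pericentral hepatocytes, was at 248 CPM in control members and 108 in the others, and at 170 and 19.7 CPM in GS_KO, log2 ratios of 1.21 (0.71 to 1.66) and 3.18 (1.90 to 4.16). Cyp1a2, a cytochrome P450 that oxidises aromatic amines, was at 523 and 350 CPM in control and 529 and 267 in GS_KO, log2 ratios of 0.58 (0.26 to 0.88) and 1.01 (0.39 to 1.53). These genes and Glul were higher in members of both libraries, in the direction of the label. With Slc1a2 left out of the rule, which left 32 members, Cyp1a2 in control turned to −0.24. Oat, the ornithine aminotransferase of the same ring, was above the others in GS_KO only beyond counting error, at 113 against 33.9 CPM (log2 1.85, 0.26 to 2.93), and stood at 301 against 261 CPM in control (log2 0.21, −0.22 to 0.60), a ratio that was −0.89 in barcodes of 500 to under 1000 UMIs. Cyp2e1, an abundant pericentral P450, was level in control at 5669 against 5510 CPM and higher in GS_KO members at 3214 against 2343 CPM. Its level in the small control barcodes was 10538 CPM. Axin2, a target of beta-catenin, had 1 UMI in the members of each library, and Rhbg, an ammonium transporter, had 0, so neither could be judged at this depth.

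In the control library, few genes separated members from other barcodes. Of 1917 genes with a mean of at least 100 CPM over members and others, 11 were at least 2-fold higher in members (0.574% of those tested) and 8 at least 2-fold lower (0.417%), with 10 CPM added to both sides. The median log2 ratio over all of them was 0.05. Of these, 2 of the higher and 2 of the lower genes encode immunoglobulins, and all UMIs of the higher ones, Ighg2b and Igkc, were in 1 member, which leaves 9 higher and 6 lower genes. The 9 genes of the rule were left out of these counts. A mean of 100 CPM corresponds to 18.9 UMIs in the control members.

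Tox (chr4:6686353-6991557, minus strand), a DNA-binding protein known best from T cells, was the most abundant of the 12 genes named as highest in control members. It stood at 1679 CPM (318 UMIs) in members and 590 in the others, a log2 ratio of 1.51 (1.33 to 1.69), and at 116 CPM in periportal-marked barcodes. Its level in the small barcodes was 13.7 CPM. Adgrv1, a large adhesion receptor, had the highest log2 ratio of the genes tested and named, 2.19 (1.78 to 2.58), at 406 CPM against 89.3. Tenm3, a teneurin adhesion protein, stood at 755 against 336 CPM (log2 1.17, 0.90 to 1.43), and Celf2, a regulator of splicing, at 618 against 289 CPM (log2 1.10, 0.80 to 1.39). Arhgef3, a guanine nucleotide exchange factor, and the kinase Cdk6 were both at 158 CPM in members, against 65.2 and 63.7 in the others. Rnf43, a ubiquitin ligase that removes Wnt receptors and is itself a Wnt target, stood at 459 against 238 CPM, a log2 ratio of 0.95 (0.60 to 1.28). Dlgap1, Pfkfb2 and Aox1 completed the 12 named genes, with log2 ratios of 1.03, 1.05 and 1.11. All 12 had intervals above 0.

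Several of the genes lowest in control members are known from the portal side. Cps1 (chr1:67123026-67231259, plus strand), which makes carbamoyl phosphate for urea synthesis, stood at 4603 CPM in members and 9704 in the others, a log2 ratio of −1.08 (−1.18 to −0.98), and at 12230 CPM in periportal-marked barcodes. Arg1, the arginase that releases urea, stood at 528 against 1234 CPM (−1.22, −1.53 to −0.94). Slc7a2, an arginine transporter, was at 1135 against 2235 CPM (−0.97, −1.18 to −0.78), and Asl, the urea cycle lyase, at 227 against 412 CPM (−0.85, −1.34 to −0.42). Cers6, a ceramide synthase, had the lowest log2 ratio of the named genes, −2.87 (−4.64 to −1.77), from 5 UMIs in members, and Nrg4, a growth factor secreted by fat and liver cells, stood at −1.96 from 9 UMIs. Got1, the cytosolic aspartate aminotransferase, and Uroc1, the urocanate hydratase of histidine breakdown, had log2 ratios of −1.61 and −1.22 from 11 and 13 member UMIs. Reep6, Fgl1, Naaladl2 and Il31ra completed the list, between −0.86 and −0.83.

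In GS_KO, 95 of 1951 genes were at least 2-fold higher in members (4.87%) and 67 at least 2-fold lower (3.43%). These counts rest on 52890 member UMIs, against 189451 in control, and the 100 CPM minimum corresponds there to 5.29 UMIs. A gene under 100 CPM in members reached that minimum only through the others, and the reverse also held. At a minimum mean of 300 CPM, genes past 2-fold in either direction numbered 5 in control and 17 in GS_KO. The number of genes tested at that minimum is not given, so these 2 counts cannot be read as shares. The median log2 ratio over all tested genes was 0.15 in GS_KO, so its ratios are read against that shift.

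The highest ratio among the named genes in GS_KO members was that of a P450. Cyp2b9, of a family that oxidises drugs and steroids, stood at 435 CPM (23 UMIs) in members, 47.7 in the others and 0 in periportal-marked barcodes, a log2 ratio of 3.21 (2.47 to 3.84). Cyp2c38 was at 284 against 60.7 CPM (2.27, 1.35 to 2.99), and Rdh16, a retinol dehydrogenase, at 246 against 60.7 CPM (2.07, 1.08 to 2.84). Aldh3a2, a fatty aldehyde dehydrogenase, followed at 208 against 55.6 CPM (1.96, 0.87 to 2.79). Tox was again among them, at 454 CPM (24 UMIs) against 57.3, a log2 ratio of 3.01 (2.29 to 3.62), as was Adgrv1, at 643 against 159 CPM (2.03, 1.46 to 2.52). Airn, an imprinted noncoding RNA of the cluster that also holds Slc22a3, was at 416 CPM (22 UMIs) against 71.5 (2.57, 1.83 to 3.18) and, below the 100 CPM mean in control, at 148 against 19.6 CPM there (2.92, 2.16 to 3.65). Airn (chr17:12741311-12860136, plus strand) overlaps Igf2r on the other strand, and Igf2r stood at 37.8 against 31.4 CPM in GS_KO and 31.7 against 31.6 in control. The sources used here do not say whether counting used strand. The fatty acid transporter Cd36, the exporter Abcc3, Crim1, which binds bone morphogenetic proteins, and Eml5 had log2 ratios of 2.43, 1.80, 2.22 and 1.92 from 9 to 15 UMIs. Wfdc17, which macrophages express, had 11 UMIs in GS_KO members, of which 7 were in 1 barcode.

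The genes named as lowest in GS_KO members again included portal-side enzymes. Cps1 stood at 870 CPM (46 UMIs) against 3129 (−1.83, −2.30 to −1.43), and Hal, the histidine ammonia lyase, at 113 against 444 CPM (−1.85, −3.42 to −0.84). Gldc, the glycine decarboxylase, and Hsd17b13, a lipid droplet dehydrogenase, were each at 56.7 CPM in members, from 3 UMIs, against 264 and 437 in the others. Chrm3, a muscarinic acetylcholine receptor, was at 113 against 768 CPM (−2.64, −4.21 to −1.63) and at 1809 CPM in periportal-marked barcodes. The metallothionein Mt1 was at 56.7 against 264 CPM (−1.99, −4.50 to −0.66). The remaining named genes, Ube2d3, Depp1, Zfc3h1, Crp, Fndc3b and Dapk1, had 2 to 4 UMIs in members and log2 ratios from −1.98 to −1.56.

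Levels of some genes outside the rule moved with the marker sum. In control, Cps1 was at 9523, 9601, 7843, 6344, 5541 and 2974 CPM in barcodes with 0, 1, 2, 3, 4 to 5, and 6 or more marker UMIs. Tox went the other way, from 547 CPM at 0 through 936, 1219, 1628 and 1549 to 1796 CPM at 6 or more. Cyp2e1 stayed between 5339 and 5794 CPM over the same barcodes. Glul in control did not rise at each step, at 106, 178, 142, 127, 361 and 309 CPM, the value at a sum of 3 from 6 UMIs. Barcodes just outside the threshold of 3 lay between members and the rest for Cps1 and Tox. Few UMIs decide the marker sum of a barcode, and whether the cells form a gradient was not tested. In GS_KO, Cps1 was at 3076, 2415, 1875, 1297 and 500 CPM from 0 to 4 to 5 marker UMIs, and 880 CPM in the 3 barcodes of 6 or more. Cyp2c29 there was at 2022, 3184, 3306, 4294 and 5387 CPM from 0 to 4 to 5 marker UMIs.

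With Slc1a2 left out of the rule, 32 barcodes in control and 12 in GS_KO were members. Tox then had log2 ratios against the others of 1.29 in control and 2.27 in GS_KO, Adgrv1 2.25 and 1.83, and Cps1 −0.77 and −1.42. Tenm3 kept 1.17 in control and turned to −0.24 in GS_KO, on these 12 barcodes.

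**Figure D2:**
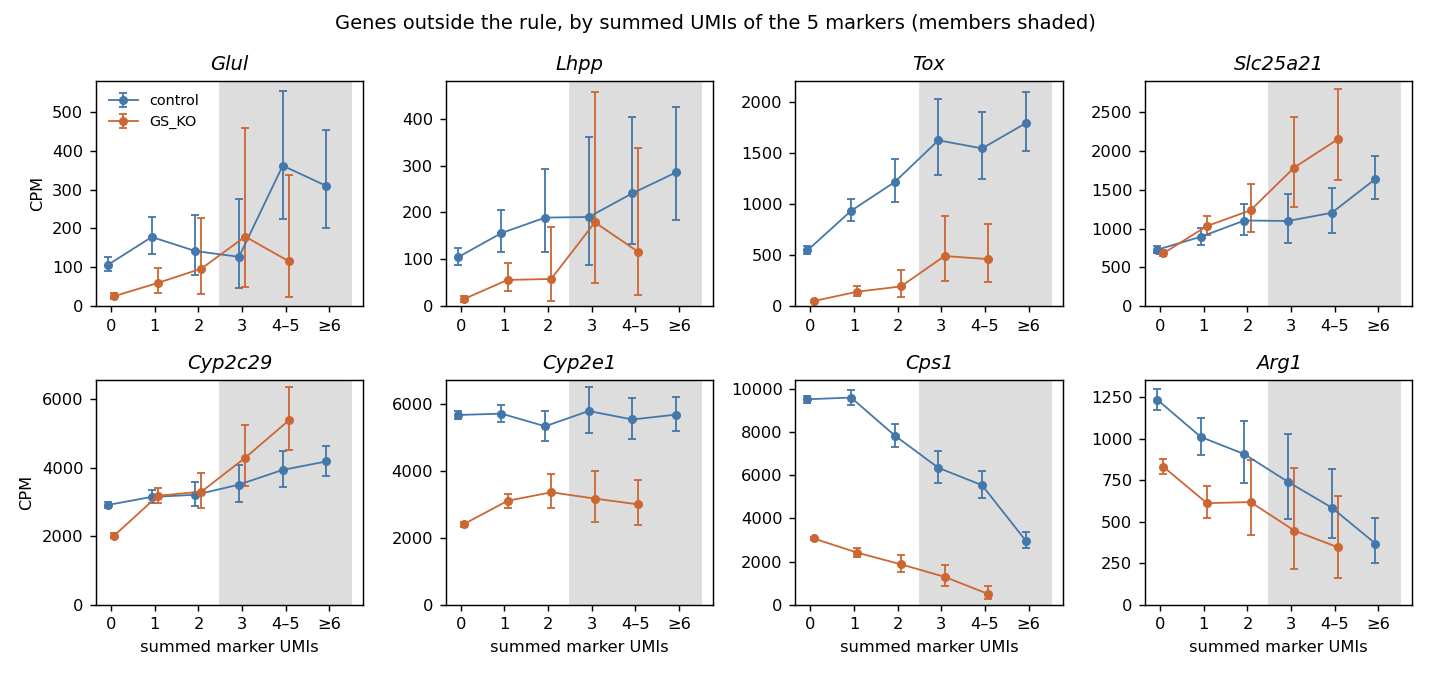
CPM of 8 genes outside the rule in barcodes grouped by the summed UMIs of the 5 markers (within the periportal limit), with exact Poisson 95% intervals; the member range is shaded and the 3 GS_KO barcodes of 6 or more are left out. Cps1 is lower at each step from 1 marker UMI on in both libraries, Tox is higher in members than at 0 in both, and Cyp2e1 is level in control. Glul in control does not rise at each step.

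The lists of pathway genes were summarised by counts and medians. Of 38 pericentral genes, 27 had enough counts in control and 25 in GS_KO. Their median log2 ratio was 0.27 in control, with 20 above 0, and 0.74 in GS_KO, with 21 above 0. In control, 2 were past 2-fold higher, Glul and Lhpp, beside 0.574% of all genes tested there. In GS_KO, where 4.87% of all genes tested were past 2-fold higher, 9 were: Rnf43, Cyp2c29, Cyp2c38, Cyp2c50, Cyp2c54, Aldh3a2, Ahr, Cyp7a1 and Rdh16. Cyp2c38, Aldh3a2 and Rdh16 were under 100 CPM in the others and reached the CPM minimum only through members, so their places in this count are not support for the list. Glul and Lhpp were not among the 25 genes of GS_KO, because their means there were under the CPM minimum. No measured gene of the list was past 2-fold lower in either library. Ahr, the receptor for dioxin-like compounds, stood at 148 against 89.3 CPM in control and 321 against 139 in GS_KO. The Cyp2c genes lie in one family of near-identical copies, and counting could split reads between them, so their single values are uncertain.

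Periportal genes were lower in members of both libraries. Of 19 measured in control, 17 were below 0, with a median of −0.31, and Cps1 and Arg1 were past 2-fold lower, beside 0.417% of all genes tested. Of 22 measured in GS_KO, 20 were below 0, with a median of −0.45. There, 3.43% of all genes tested were past 2-fold lower, and 8 of the list were: Hal, Cyp2f2, Cps1, Arg1, Hsd17b13, Hsd17b6, Gldc and Ftcd. Gldc and Hsd17b13, for instance, were under 100 CPM in members and reached the CPM minimum only through the others, so their places in this count are not support for the list. The P450 Cyp2f2 stood at 170 against 486 CPM in GS_KO (−1.44, −2.65 to −0.58) and at 375 against 469 CPM in control (−0.31, −0.69 to 0.03). Pck1, which makes phosphoenolpyruvate for glucose synthesis, was at 3046 against 3746 CPM in control and 2042 against 2796 in GS_KO.

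Urea cycle genes had a median of −0.52 in control, over 8 measured, and −0.38 in GS_KO, over 7 measured. In both, Cps1 and Arg1 were past 2-fold lower, beside 0.417% of all genes tested in control and 3.43% in GS_KO. Ass1, which joins citrulline to aspartate, was at 1620 against 2411 CPM in control (−0.57, −0.74 to −0.41) and 851 against 1121 CPM in GS_KO (−0.38, −0.86 to 0.03). Otc, which makes citrulline, had log2 ratios of −0.47 and −0.54. Asl was lower in control members but stood at 170 against 144 CPM in GS_KO, where its interval of −0.90 to 1.18 holds 0.

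Genes of glutamine and glutamate metabolism lay on both sides of 0. Their median log2 ratio was 0.15 over 14 measured in control, with Glul past 2-fold higher and Got1 past 2-fold lower. Over all genes tested there, 0.574% were past 2-fold higher and 0.417% lower. In GS_KO it was 0.01 over 8 measured, with 0 past 2-fold. Glul was not among these 8, because its mean in GS_KO was under the CPM minimum. Its log2 ratio there was 2.47 (1.12 to 3.45). Gls2, the liver glutaminase that works in opposition to Glul, was at 31.7 CPM (6 UMIs) against 122 in control and 18.9 CPM (1 UMI) against 94.5 in GS_KO. Glud1, the glutamate dehydrogenase, was nearly level, at 2074 against 1830 CPM in control and 1059 against 982 in GS_KO.

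P450s, their receptors and bile acid genes were more often above than below 0. P450s and receptors had a median of 0.13 over 28 measured in control, with 0 past 2-fold, and 0.44 over 26 in GS_KO, with 7 past 2-fold higher. These counts stand beside 0.574% of all genes past 2-fold higher in control and 4.87% in GS_KO. Cyp2b9 and Cyp2c38, and Klb of the bile acid genes below, reached the CPM minimum in GS_KO only through members. Bile acid genes had medians of 0.24 over 17 and 0.53 over 19, with 5 past 2-fold higher in GS_KO: Cyp7a1, Cyp7b1, Akr1d1, Amacr and Klb. Cyp7a1, which sets the rate of bile acid synthesis, was at 1510 against 1092 CPM in control and 397 against 139 in GS_KO. Cyp7b1, of the alternative route, was at 4529 against 3120 CPM in control and 7828 against 3129 in GS_KO. Klb, the co-receptor for the gut hormone that holds Cyp7a1 down, was at 127 against 87.8 CPM in control and 189 against 54.0 in GS_KO.

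Wnt pathway genes were mostly too low to measure: 6 of 28 in control, with a median of 0.25, and 7 in GS_KO, with a median of −0.09. Rnf43 was past 2-fold higher in GS_KO members, at 416 against 143 CPM (1.57, 0.85 to 2.16), beside 4.87% of all genes tested. Its relative Znrf3 stood at 238 against 216 CPM in control and 170 against 131 in GS_KO. Hepatocyte identity genes were close to level, with medians of −0.15 over 13 and −0.11 over 12 and 0 past 2-fold in both libraries. Acute phase genes had medians of −0.15 over 16 and −0.22 over 22. Of the 22, Fgl1 and Hamp, the iron hormone hepcidin, were past 2-fold lower in GS_KO members, beside 3.43% of all genes tested. Hamp stood at 662 against 1543 CPM there (−1.20, −1.75 to −0.74) and at 3093 against 3303 CPM in control.

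**Figure D3:**
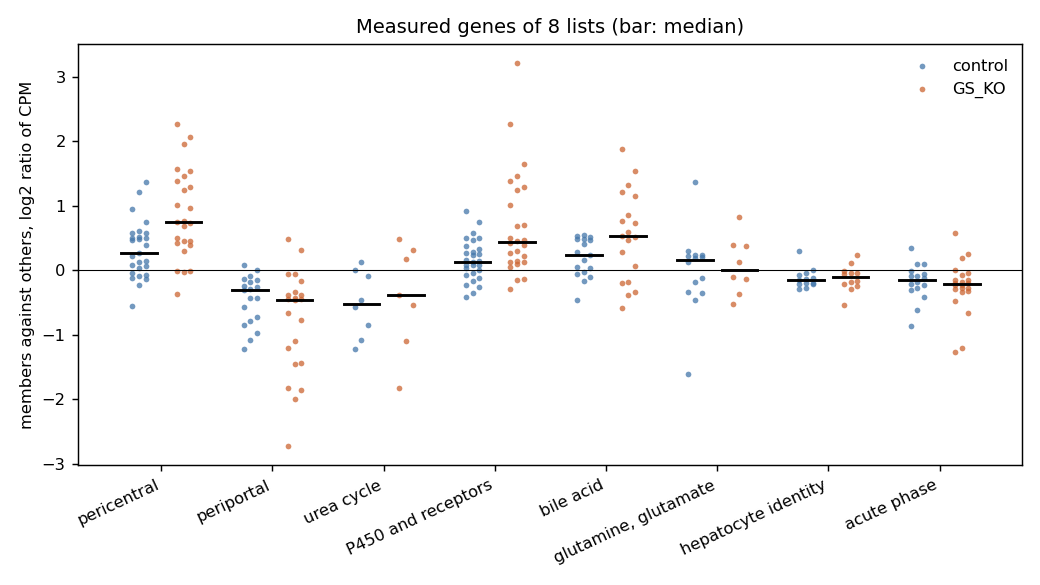
Log2 ratio of CPM in members to that in other barcodes for the measured genes of 8 lists in the control and GS_KO libraries, 1 point per gene, with a bar at the list median. Pericentral genes lie mostly above 0 and periportal genes mostly below 0 in both libraries, and the pericentral median is 0.27 in control and 0.74 in GS_KO.

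Set side by side over the 1534 genes tested in both libraries, 7 were past 2-fold higher in control members and 45 in GS_KO members. Adgrv1, Arhgef3, Celf2 and Tox were in both sets, which is 57.1% of the control set and 8.89% of the GS_KO set. The other 3 control genes, Aox1, Cdk6 and Tenm3, were also above 0 in GS_KO, with log2 ratios of 0.82, 1.02 and 0.94. Of 3 genes past 2-fold lower in control and 42 in GS_KO, Arg1 and Cps1 were in both, which is 66.7% and 4.76%, and the third, Uroc1, had a log2 ratio of −0.95 in GS_KO. No gene was past 2-fold in opposite directions. Glul and Lhpp were not among the 1534 genes, because their means in GS_KO were under the CPM minimum. Their log2 ratios were 1.37 and 1.21 in control and 2.47 and 3.18 in GS_KO.

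For some genes the counting intervals of the 2 ratios did not overlap, and the difference between the libraries was not tested. How many of the 1534 genes tested in both lacked overlap is not given, so the genes below are examples. Over all genes tested in each library, the 5th to 95th percentiles of the ratio were −0.50 to 0.61 in control and −0.78 to 1.12 in GS_KO. The member-to-other ratio was higher in GS_KO for Tox (3.01 against 1.51), Lhpp (3.18 against 1.21), Cyp7a1 (1.54 against 0.47), Cyp2e1 (0.46 against 0.04) and Slc25a21 (1.49 against 0.87), a mitochondrial carrier of oxoadipate. It was also higher for Cyp2c29 (1.29 against 0.50), Cyp2c37 (2.63 against 0.22), Cyp2c50 (1.38 against −0.12) and Cyp2c54 (1.46 against −0.23). Cps1 was lower in GS_KO members relative to their others (−1.83) than in control (−1.08). In each of these 10 genes, of which Slc25a21 was chosen after its values were seen, the level in the other barcodes was lower in GS_KO than in control: Tox went from 590 to 57.3 CPM, Lhpp from 108 to 19.7, Cyp7a1 from 1092 to 139 and Cyp2e1 from 5510 to 2343. That level is the denominator of the ratio, so the 2 are coupled, and no cause was tested. The ratios of Cyp2b9 (3.21 against 0.47), Cyp2c38 (2.27 against 0.51) and Cyp7b1 (1.32 against 0.54) were also higher in GS_KO with no overlap. In barcodes with 0 marker UMIs and within the periportal limit, Cyp2b9 went from 114 CPM in control to 40.8 in GS_KO, and Cyp2c38 from 219 to 50.7. Cyp7b1 in the other barcodes was nearly level, at 3129 CPM in GS_KO and 3120 in control. For Adgrv1, Arhgef3, Tenm3 and Airn the 2 intervals overlapped.

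**Figure D4:**
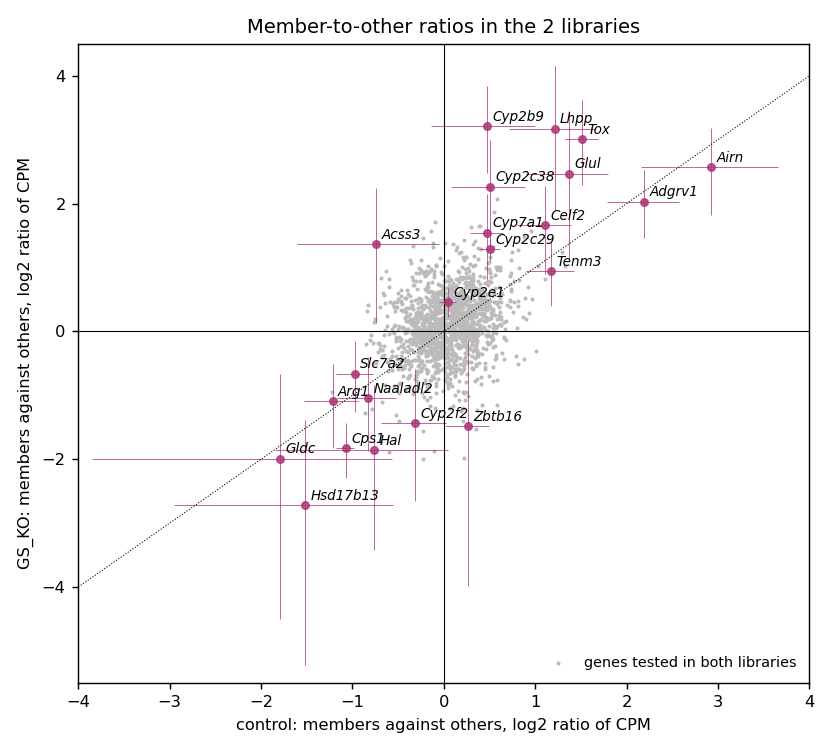
Log2 ratio of CPM in members to that in other barcodes, control on the horizontal and GS_KO on the vertical axis; grey points are genes tested in both libraries, and labelled points have 95% counting intervals. Adgrv1 and Airn lie near the dotted line of equal ratios, while Tox and Lhpp lie above it, at 3.01 and 3.18 in GS_KO against 1.51 and 1.21 in control.

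Against periportal-marked barcodes, 98 in control and 95 in GS_KO, the contrasts were larger. Glul had log2 ratios of 4.60 in control and 3.89 in GS_KO, from 1 UMI in the periportal-marked barcodes of each library. Tox had 3.80 and 5.42, Tenm3 3.70 and 3.05, and Adgrv1 2.81 and 3.41. Cps1 had −1.41 and −2.26. Cyp2e1, level against all other control barcodes, had 0.50 in control and 1.70 in GS_KO. The pericentral list had medians of 0.68 and 1.70.

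Barcodes of 500 to under 1000 UMIs, which the rule does not use, were examined with the same marker limits after the results above were seen. There were 198 such marked barcodes in control and 40 in GS_KO, 1.65% and 0.399% of that depth range. Tox was higher in them than in the other barcodes of that depth, with log2 ratios of 2.76 in control and 4.13 in GS_KO, as were Adgrv1 (3.49 and 3.88), Tenm3 (2.38 and 3.11), Celf2 (2.24 and 2.24) and Glul (1.88 and 3.18). Arg1 was lower (−1.09 and −1.17), as was Cps1 (−0.48 and −1.37). Cyp2e1 stood at −0.40 in control and 0.43 in GS_KO. The part of free RNA in the ratios of these smaller barcodes was not tested.

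Between the libraries, 251 of 2016 genes were at least 2-fold higher in GS_KO members than in control members (12.5%) and 211 at least 2-fold lower (10.5%), with a median log2 ratio of 0.09 over all. All 24 genes named in this comparison differed by at least 2-fold in the same direction in the other barcodes.

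Acute phase genes were among the 12 highest in GS_KO members. Lcn2, an iron-trapping defence protein, had 0 UMIs in control members and 42 in GS_KO members, 794 CPM, at least 50.1-fold higher against a floor of 3 UMIs, which is 15.8 CPM in control members. The serum amyloid gene Saa1 stood at 58.1 CPM in control members and 1456 in GS_KO members (log2 4.59, 3.73 to 5.71), beside 5.55 in the other barcodes. Saa2, Saa3 and Orm2, each with 1 control UMI, were at 454, 284 and 340 CPM in GS_KO members, and the log2 ratios in the other barcodes were 6.05, 5.43 and 5.43. Of 23 measured acute phase genes, 21 were above 0 and 14 past 2-fold higher, beside 12.5% of all genes tested, with a median of 1.72 in members and 1.68 in the other barcodes. The medians of all genes tested were 0.09 and −0.06. Hamp went the other way, at 3093 CPM in control members and 662 in GS_KO members (−2.21, −2.76 to −1.73).

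The class II genes Cd74 and H2-Aa belong to antigen-presenting cells such as Kupffer cells, whose marker sum was also higher in GS_KO members, 700 against 47.5 CPM. Cd74 stood at 15.8 CPM in control members and 548 in GS_KO members (4.92, 3.42 to 7.47), and H2-Aa at 0 and 227 CPM, at least 14.3-fold higher. Wfdc17 was at 0 and 208 CPM, at least 13.1-fold higher. In the small barcodes of GS_KO, Cd74 stood at 827 CPM, above its level in members. The Kupffer marker sum in the small barcodes was 750 CPM in GS_KO, also above that of members, and 124 in control. The remaining named genes were Cyp3a59, at 52.8 and 1210 CPM, Irf1, an interferon-responsive factor, at 5.28 and 246 CPM, Lrmda, at 36.9 and 813 CPM, and Syne1, a nuclear envelope protein, at 10.6 and 284 CPM.

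Among genes lower in GS_KO members, Alas1, the first enzyme of heme synthesis, went from 2787 to 340 CPM (−3.00, −3.80 to −2.36), beside −3.62 in the other barcodes. Thrsp, a lipogenic regulator, went from 1209 to 94.5 CPM (−3.54, −5.31 to −2.43), and Lpin1, a phosphatidate phosphatase, from 903 to 37.8 CPM (−4.26, −7.63 to −2.70). The receptor Esr1 went from 607 CPM to 18.9 CPM, which is 1 UMI (−4.43, −10.32 to −2.50), and St3gal5, a ganglioside synthase, from 982 to 37.8 CPM. The glucocorticoid-responsive genes Fkbp5 and Zbtb16 went from 544 and 881 CPM to 37.8 and 56.7 CPM, and Mt1 from 728 to 56.7 CPM. The liver transcription factor Onecut1 and Aacs, an enzyme of ketone body use, went from 364 and 227 CPM to 1 UMI each. Trim24 and Homer2 went from 348 and 280 CPM to 0 UMIs, at least 6.14-fold and 4.93-fold lower against a floor of 3 UMIs. Mt1, Zbtb16 and Esr1 were lower by more in members than in the other barcodes, where the intervals were −1.83 to −1.57, −2.16 to −1.84 and −2.11 to −1.77 and did not overlap those of members. These genes were named for their low ratios in members, which favours a larger fall there. Their GS_KO member levels rest on 3, 3 and 1 UMIs.

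**Figure D5:**
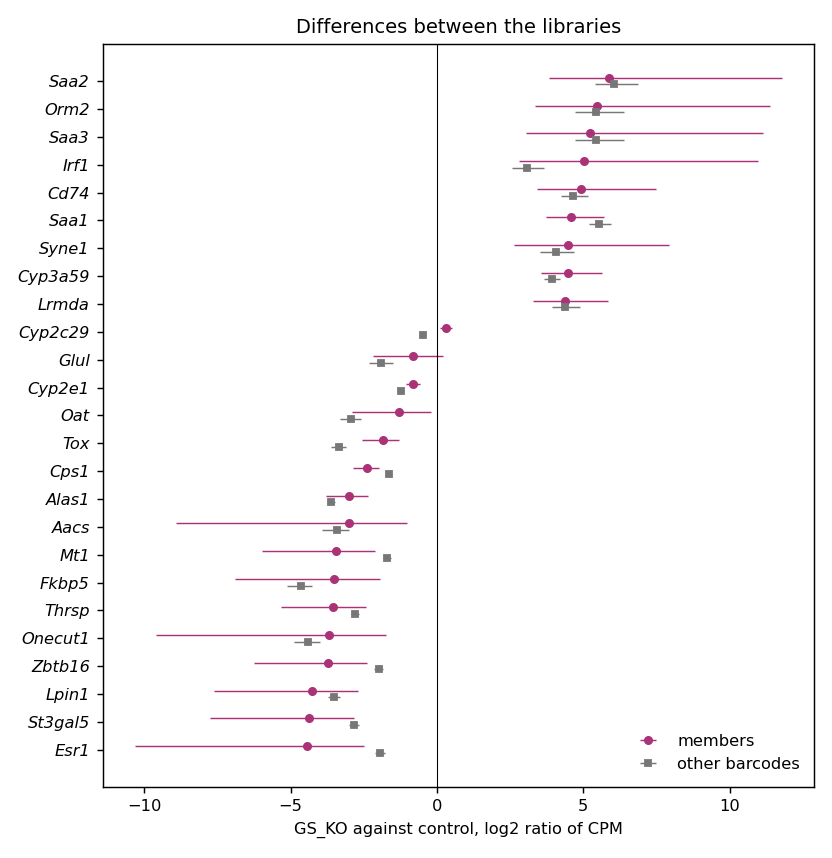
Log2 ratio of CPM in GS_KO to that in control for members (circles) and other barcodes (squares), with 95% counting intervals; named genes with 0 UMIs in the members of 1 library are left out. Saa1 stands at 4.59 in members and 5.55 in others, Alas1 at −3.00 and −3.62, and Cps1 at −2.39 in members and −1.63 in others.

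List medians across the libraries were set side by side for members and others, beside medians over all genes tested of 0.09 and −0.06. The 29 measured pericentral genes had a median log2 ratio of GS_KO to control of −0.12 in members and −0.82 in the other barcodes, and the 17 periportal genes had −0.92 and −0.51. Tox was lower in GS_KO by −1.86 (−2.55 to −1.29) in members and −3.36 (−3.63 to −3.11) in others on the log2 scale, and Lhpp by −0.48 (−1.76 to 0.50) and −2.44 in others, where the interval lay wholly below that of members. Cyp2c29 was at 0.31 (0.10 to 0.52) in members and −0.47 (−0.53 to −0.41) in others. Cyp7b1 was at 0.79 (0.62 to 0.96) and 0.00 (−0.04 to 0.05). Cps1 was at −2.39 (−2.86 to −1.98) in members and −1.63 (−1.67 to −1.59) in others. P450s and receptors had medians of 0.12 in members and −0.47 in others, while urea cycle genes, also known from the portal side, had −0.65 and −1.14, the opposite order to that of the periportal list.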

How the data were processed

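The authors deposited 1 matrix of raw UMI counts per library, and the file headers name Cell Ranger 8.0.0; the build mm10 comes from the submitters' processing notes. The sources used here do not say how barcodes were chosen for deposit. The labels state at least 10000 cells; 13692 control and 11871 GS_KO barcodes held at least 500 UMIs, and 1703 and 1834 held at least 1000. Totals were 61635695 and 57973740 UMIs over 32285 genes.

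Counts were summed over members and over other barcodes and scaled to CPM. Log2 ratios had 0.5 counts added to each sum, with exact conditional 95% intervals from Python 3.11.15 with scipy 1.17.1, tested on simulated data. Genes past 2-fold had an absolute log2 ratio of at least 1 with 10 CPM added, among genes with a mean of at least 100 CPM. Named genes were the 12 highest and 12 lowest on that scale in each comparison, without ribosomal, mitochondrial, predicted, Rik, immunoglobulin, T cell receptor and sex check genes, plus Glul and extremes of 26 lists. Of the listed genes, 1 was not found in the files. Doublets were not removed. A few single-gene results are not reported here. The members and lists were chosen with earlier results of these data known. UMIs in a barcode are counts of molecules, so floors of 3 counts and intervals cover counting error only. Alternatives numbered 20 planned and 1 added.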

Additional observations from a re-analysis of the deposited data

Results flagged for a closer look

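Of 1451 genes tested in both libraries that were open to naming, 4 had member-to-other log2 ratios of opposite sign in the 2 libraries, with counting intervals that exclude 0 in each, of which 3 are given here. The difference between the libraries was not tested, since each is 1 mouse. Cp, the plasma copper carrier ceruloplasmin, stood at 0.35 in control and −0.23 in GS_KO. Zbtb16 stood at 0.26 in control and −1.48 in GS_KO, where members held 3 UMIs. Acss3, a mitochondrial acyl-CoA synthetase, stood at −0.74 in control and 1.37 in GS_KO, from 16 and 9 member UMIs.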

How the results depend on the processing

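No paired analysis was possible because each group holds 1 library. The 1000 UMI minimum and the marker genes limit the members, and GS_KO values rest on 37 barcodes. The share of members, 8.57% in control and 2.02% in GS_KO, was 13.3% and 3.98% with a marker minimum of 2, 6.46% and 1.09% with 4, 2.51% and 0.649% at 500 UMIs, 1.88% and 0.654% without Slc1a2, and 1.65% and 0.399% in barcodes of 500 to under 1000 UMIs, an alternative chosen after seeing the data. It was 7.16% in control without Rcan2, and 1.20% in GS_KO both when thinned and without Lgr5. Genes past 2-fold, 19 in control and 162 in GS_KO against others, were 9 and 74 with a marker minimum of 2, 273 and 303 at 500 UMIs, 34 and 276 at the higher UMI minimum tried, 158 and 504 without Slc1a2, 121 and 301 against periportal-marked barcodes, 64 and 286 with free RNA taken off, 5 and 17 at 300 CPM, 196 and 1184 at 20 CPM, and 454 and 543 at 500 to under 1000 UMIs. In GS_KO alone they were 299 with a marker minimum of 4, 354 thinned, 347 without Lgr5 and 76 with 50 CPM added. The 462 genes between members of the libraries became 770 without Slc1a2, 112 at 300 CPM and 1970 at 20 CPM. The number of genes tested changes with the CPM minimum and with the barcodes compared and is not given for the alternatives, so these counts cannot be read as shares. The pericentral median of 0.74 in GS_KO was 1.24 at 500 UMIs, 1.70 against periportal-marked barcodes, 1.15 with free RNA taken off, 1.01 at 20 CPM and 1.35 at 500 to under 1000 UMIs, and that of 0.27 in control was 0.68 against periportal-marked barcodes. The Glul ratio of 1.37 in control was 4.60 against periportal-marked barcodes and 1.88 at 500 to under 1000 UMIs, and that of 2.47 in GS_KO was 3.89 against periportal-marked barcodes. The other alternatives for these values moved each count by less than 1.5 times, each share or ratio within its interval and each median by less than 0.25.

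Of 172 ratios of single genes, 58 changed direction under some alternative, 42 of which had an interval that held 0 (Oat in control and Asl in GS_KO, for instance, went down to −0.89 and −1.04). The other 16 follow. In control against others, Lpin1, Naaladl2 and Thrsp became 0.46, 0.036 and 0.10 at 500 UMIs and 0.76, 0.21 and 0.18 at 500 to under 1000 UMIs, and Cyp1a2 and Uroc1 became −0.24 and 0.13 without Slc1a2. In GS_KO against others, Abcc3 and Tenm3 became −0.062 and −0.24 without Slc1a2, and Wfdc17 −0.52 without barcodes that carry markers of other cells. At 500 to under 1000 UMIs, Crp, Dapk1, Depp1, Ube2d3, Zbtb16 and Zfc3h1 became 0.30, 0.58, 0.71, 0.71, 0.73 and 0.92, Wfdc17 −1.88, and, between members, Cyp2f2 and Ube2d3 0.15 and 0.11. The cause was not tested. Of the genes named, 22 of 24 in control and 17 of 24 in GS_KO kept their direction under all alternatives, as did 24 of 24 between members.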

Other observations

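Other metabolic lists were compared between the members of the libraries, where 12.5% of all genes tested were past 2-fold higher and 10.5% past 2-fold lower in GS_KO. Of 21 measured glucose genes, 9 were past 2-fold lower in GS_KO members and 1 higher, with a median log2 ratio of −0.69 in members and −0.54 in the others. Fbp1, of glucose synthesis, went from 1082 to 416 CPM, and Igfbp1, which insulin holds down, from 238 to 624 CPM. Of 13 measured lipogenesis genes, 5 were past 2-fold lower and 0 higher, with medians of −0.79 in members and −0.42 in the others. Of 6 measured cholesterol synthesis genes, 3 were past 2-fold higher, Hmgcs1, Sc5d and Insig1, with medians of 0.72 and 0.76.

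The remaining lists stand beside the same shares of all genes tested, 12.5% higher and 10.5% lower, and most had small counts. Conjugating enzymes had a median of −0.41 in members, over 17 measured, and −0.44 in the others. Of the 17, 5 were past 2-fold lower in members, a larger share than over all genes, and Gstp1 was past 2-fold higher. Fatty acid oxidation genes had a median of −0.46 over 12, with Acadm and Acadl past 2-fold lower. Of 4 measured genes of the heme list, Alas1 and Fech were past 2-fold lower. Hpx, which binds free heme and is not an enzyme of its synthesis, was past 2-fold higher and is also counted in the acute phase list. Of 5 measured clock genes, Clock was past 2-fold higher and Tef past 2-fold lower, at 322 CPM in control members and 37.8 in GS_KO members. Of 3 measured NF-kB genes, Nfkbiz and Cxcl1 were past 2-fold higher. Nr0b2, a repressor of bile acid synthesis, went from 52.8 to 473 CPM, while Cyp7a1 went from 1510 to 397 CPM. Within the libraries, none of these lists had more than 1 gene past 2-fold apart from the bile acid genes.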
